A study of Mus musculus with 15 samples.

Results

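The comparison described here sets orthotopic pancreatic tumors of mice given DRP-104 against tumors of mice given vehicle, 3 tumors in each group, 6 of the 15 samples of the series. Its samples were chosen by their labels alone, and its genes by level: 15454 of the 55291 genes listed for these tumors had a mean normalized count of at least 10 over the 6 tumors and were tested. All 6 tumors grew from HY19636, a single primary murine pancreatic ductal adenocarcinoma (PDAC) line with mutant p53 that was started from the tumor of a Ptf1a-Cre mouse, so both groups stand for 1 cancer genotype. The cells were injected into the pancreas tail of female C57BL/6J mice aged 8 to 10 weeks. From 7 days after surgery the mice received either vehicle or DRP-104 at 3 mg per kg, injected intraperitoneally once daily in 2 cycles, each with 5 treated days followed by 2 untreated ones, and the tumors were taken 21 days after transplantation. Whole tumors were sequenced, so cancer cells, fibroblasts, vessels and immune cells of the host share each profile, and fewer cells of a type and less RNA per cell of that type cannot be told apart. The question put to these samples was how tumors had adapted to the drug at the endpoint, in growth factor signaling, redox and mitochondrial genes, epithelial state and the tumor microenvironment. Nothing in the labels gives the tumor of origin beyond a number, and p-values measure the spread between these 6 tumors.

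Glutamine (Gln) supplies nitrogen for purines, pyrimidines, hexosamines, asparagine and NAD, and its carbon enters the tricarboxylic acid cycle through glutamate. DRP-104 is a prodrug of the Gln antagonist DON, which binds the enzymes that take the amide nitrogen from Gln and blocks them together. PDAC is known for a dense stroma in which cancer-associated fibroblasts (CAFs) lay down collagen, and for signaling through RAF, MEK and ERK, whose activity is damped by feedback inhibitors such as the DUSP and Sprouty proteins. PDAC cells range from an epithelial state with gastric-like secretory genes to a mesenchymal state.

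Before any comparison, 2 tumors of the DRP-104 group stood apart. Over 10928 genes with a mean of at least 100, the first principal component held 56.9% of the variance and loaded 0.86 on DRP-104 tumor 3 and between -0.36 and 0.09 on the others. DRP-104 tumor 3 lay more than 4-fold above all other tumors for 247 genes, against at most 30 genes for any other tumor. DRP-104 tumor 1 differed in another way. It had 17981 genes with at least 1 read against 22140 to 22524 in the other tumors, at a similar depth (16339957 to 20687784 reads per tumor). Of 3179 genes with a mean of 3 to 10, 47% were at 0 in DRP-104 tumor 1 and 9.59% to 12% in each of the others, whereas 4 genes with a mean of at least 100 were at 0 there. Mitochondrially encoded genes took 6.42% of its reads and 2.2% to 3.19% of the others. Low values of DRP-104 tumor 1 are thus less complete than those of the other tumors, and most genes named below have a mean of at least 100.

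No gene passed the threshold in the main test. With limma on log2(normalized count + 1), 0 of 15454 genes had an adjusted p under 0.05 (0.00%), and 775 had an unadjusted p under 0.05, 335 higher and 440 lower on DRP-104. The median residual standard deviation between tumors of a group was 0.32 on the log2 scale. On the whole reads recovered from the deposited values, edgeR's quasi-likelihood test called 0 genes (863 at an unadjusted p under 0.05), while DESeq2 called 60, of which 28 were higher on DRP-104 (0.181%) and 32 lower (0.207%). DESeq2 gave no adjusted p for 1601 of the 15454 genes. The tools differed, so a gene is named as called below only by DESeq2, with limma's estimate and standard error beside it. For 1635 genes the 3 values of one group did not overlap with those of the other, 746 higher on DRP-104 (4.83%) and 889 lower (5.75%). The exact permutation test of a single gene with 3 against 3 tumors cannot go below 0.1.

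Several collagen genes were lower in the DRP-104 tumors than in the vehicle tumors, although they were not lower in the FPKM profiles described further on. All 32 genes that DESeq2 called lower were without overlap, and they included the collagen genes Col1a1, Col1a2, Col3a1, Col5a1, Col5a3 and Col6a2. The lower calls depended on single tumors, with 4 left without vehicle tumor 1, 7 without vehicle tumor 2, 19 without DRP-104 tumor 2 and 68 made without vehicle tumor 3. Col1a1 encodes the main chain of collagen I. Its normalized counts were 10293, 8286 and 5915 in DRP-104 tumors 1, 2 and 3 and 17816, 24588 and 14244 in vehicle tumors 1, 2 and 3, in which order values are given throughout. The highest DRP-104 tumor lay below the lowest vehicle tumor (log2 fold change -1.21 ± 0.27, SE; limma adjusted p = 0.916, DESeq2 adjusted p = 0.00828). Col3a1, the chain of collagen III, was at 11054, 7365 and 6426 against 23090, 33750 and 13221, a log2 fold change of -1.43 ± 0.35 (limma adjusted p = 0.916, DESeq2 adjusted p = 0.00788). Vehicle tumor 2 was the highest for Col1a1 and Col3a1, and without it their log2 fold changes were -1.0 and -1.12. Without DRP-104 tumor 3 they were -1.0 and -1.27. Col1a1 lies on chr11:94936224-94953042 (+, GRCm38, as the file gives it).

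The lower genes with the smallest DESeq2 adjusted p were Cpxm1, Penk and Cdh11. Cpxm1 encodes a secreted carboxypeptidase-like protein. It stood at 280, 266 and 186 in DRP-104 tumors and 902, 2165 and 672 in vehicle tumors (log2 fold change -2.18 ± 0.41, DESeq2 adjusted p = 5.13e-05). Penk, which encodes the precursor of the enkephalins, was at 304, 173 and 290 against 1530, 673 and 877 (-1.96 ± 0.34, DESeq2 adjusted p = 6.62e-05). Cdh11, a cadherin of mesenchymal cells, was at 215, 194 and 233 against 701, 1112 and 437 (-1.71 ± 0.32, DESeq2 adjusted p = 0.00057). The groups did not overlap for any of the 3, and vehicle tumor 2 was the highest for Cpxm1 and Cdh11 and the lowest of its group for Penk. Fndc1, a fibronectin-domain gene, was at 233, 217 and 197 against 727, 558 and 423 (-1.36 ± 0.23, DESeq2 adjusted p = 0.00106). Other DESeq2 calls on the lower side were Mxra8 (log2 fold change -1.51), Mmp2, the gelatinase (-1.55), Sfrp1, a secreted Wnt inhibitor (-1.67), Ptger3, a prostaglandin receptor (-2.38), Loxl1, a collagen and elastin cross-linking enzyme (-1.03), and Tgfb2, a TGF-beta ligand (-1.58).

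The fibroblast list, compiled from standard CAF markers with earlier results of these data known, was lower on DRP-104 for most members. It shares Col1a1, Col1a2 and Col3a1 with the genes above, so it is no separate evidence. Of its 17 tested members 15 were lower on DRP-104, 6 of them without overlap, against 5.75% of all genes, and DESeq2 called 3, the collagen genes Col1a1, Col1a2 and Col3a1. The median log2 fold change was -1.0 over the list and -0.01 over all tested genes. The summed normalized count of all 18 listed genes was 37019, 26328 and 22378 in the DRP-104 tumors and 63430, 87651 and 43164 in the vehicle tumors, with no overlap. Col1a1, Col1a2 and Col3a1 made up most of this sum. The median over the list of each gene's log2 deviation from its mean overlapped, at -0.08, -0.55 and -0.70 against 0.52, 0.99 and -0.14. Among the pan-fibroblast members, Pdgfra, the PDGF receptor of many fibroblasts, was at 465, 344 and 185 against 605, 1007 and 546 (-1.16 ± 0.37), and Pdpn was at 180, 119 and 142 against 329, 381 and 218 (-1.05 ± 0.28). Contractile markers differed by less (4 of 4 lower, median -0.38, none without overlap). Acta2, the smooth muscle actin of myofibroblasts, was at 823, 269 and 583 against 766, 704 and 455, and the groups overlapped (-0.31 ± 0.40). Of 3 inflammatory CAF markers 2 were higher and 1 lower, with overlap. The list median was -0.64 without DRP-104 tumor 3, -0.99 without DRP-104 tumor 1 and -0.51 without either DRP-104 tumor 2 or vehicle tumor 2 (-0.56 without vehicle tumor 1). Markers of endothelium were lower for 7 of 7 members, 3 without overlap (5.75% of all genes), with a median of -0.58 (-0.32 without DRP-104 tumor 3). In the FPKM columns 6 of the 7 were higher (median 0.16), with 1 higher (9.6% of all genes) and 1 lower (9.65%) without overlap. Markers of pericytes were lower in the counts for 4 of 5 members, none without overlap.

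**Figure D1:**
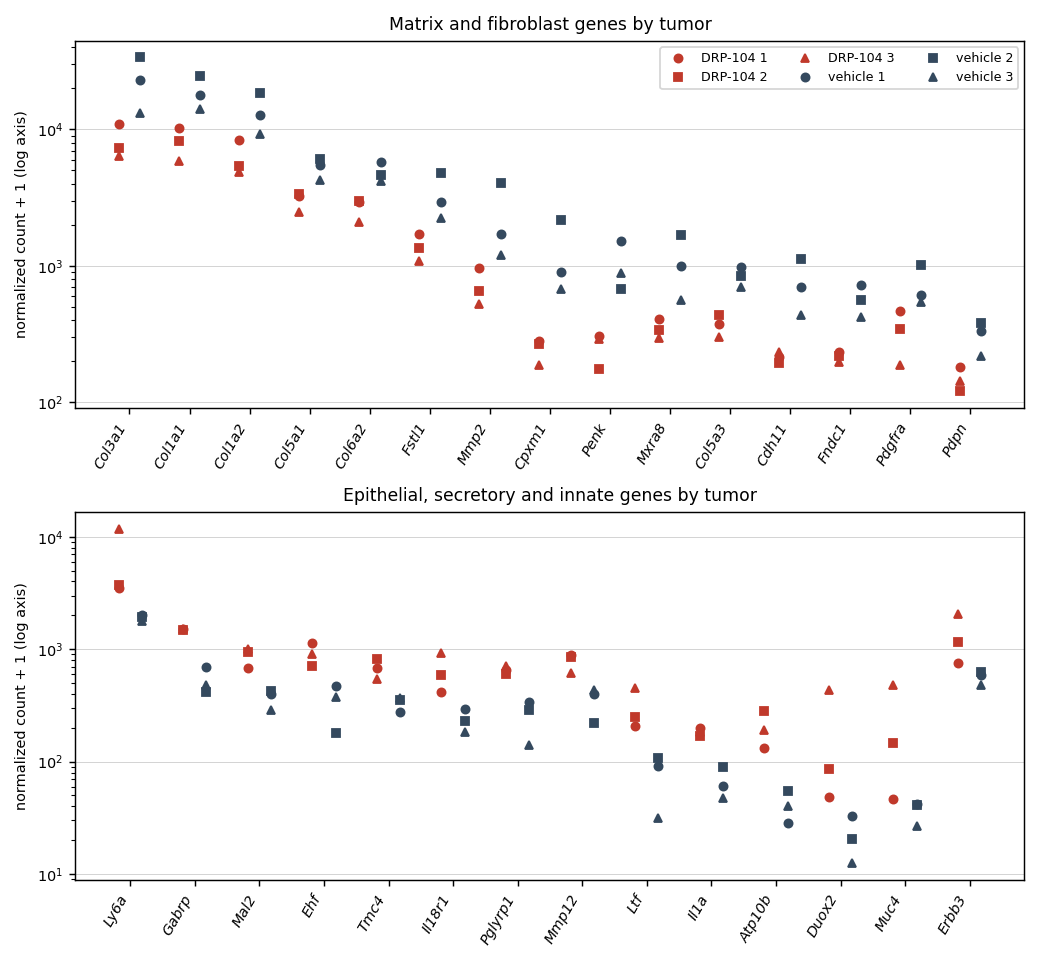
Normalized counts plus 1 (log axis) of 15 matrix and fibroblast genes (top) and 14 epithelial, secretory and innate genes (bottom) in each of the 3 DRP-104 tumors (red) and 3 vehicle tumors (dark), with 1 symbol per tumor number. For every gene shown the groups do not overlap; Gabrp lies at 1514, 1486 and 1505 on DRP-104 and between 417 and 692 on vehicle.

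On the higher side, the clearest gene was Gabrp, which encodes the pi subunit of the GABA-A receptor and is expressed in epithelial cells. It was at 1514, 1486 and 1505 in the DRP-104 tumors and at 692, 417 and 477 in the vehicle tumors, means of 1502 ± 14.5 and 529 ± 144 (SD, n = 3 each). The log2 fold change was 1.54 ± 0.20 (limma adjusted p = 0.816, edgeR adjusted p = 0.854, DESeq2 adjusted p = 1.41e-06), and it was 1.54 without DRP-104 tumor 3. Gabrp lies on chr11:33550781-33578959 (-). Mal2, a protein of apical transport, was at 676, 940 and 1007 against 398, 426 and 290 (1.23 ± 0.22, DESeq2 adjusted p = 0.00228). Atp10b, a lipid-transporting ATPase, was at 130, 279 and 189 against 28, 54 and 39 (2.26 ± 0.40, DESeq2 adjusted p = 0.000572). DESeq2 called these 3 genes higher, and Cpxm1, Penk, Cdh11 and Fndc1 lower, in all 7 fits made with every tumor or with each tumor left out in turn. The 7 fits shared no other call.

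Other genes that DESeq2 called higher were chosen here after their values had been seen, and none is in the epithelial or gastric-like lists, in which DESeq2 called 0 of 18 and 0 of 12 tested genes. Ehf, an epithelial ETS factor, was at 1140, 707 and 905 against 474, 177 and 373 (1.51 ± 0.36). Ltf, which encodes the iron-binding secretory protein lactoferrin, was at 209, 247 and 452 against 91, 107 and 31 (2.07 ± 0.51). Their DRP-104 values were all above their vehicle values. Duox2, an oxidase of mucosal epithelium (2.57 ± 0.80), and Muc4, a membrane mucin (2.05 ± 0.75), were likewise without overlap, but DRP-104 tumor 3 held most of the difference, at 431 against at most 84 and at 477 against at most 145 in any other tumor. Of the 28 genes called higher, 21 had their highest value in DRP-104 tumor 3, among them the interferon-inducible Oas2, at 47, 22 and 609 against 25, 10 and 16, for which the groups overlapped. Among inflammatory genes, Il1a, which encodes interleukin-1 alpha, was at 198, 170 and 183 against 60, 89 and 46 (1.53 ± 0.32, DESeq2 adjusted p = 0.0294), and its log2 fold change was 1.53 also without tumor 3. Pglyrp1, a peptidoglycan-binding protein, was at 658, 599 and 715 against 339, 288 and 140 (1.45 ± 0.32), Mmp12, the macrophage elastase, at 885, 850 and 612 against 400, 221 and 428 (1.20 ± 0.28), and Aim2, a sensor of cytosolic DNA, at 691, 624 and 474 against 256, 353 and 317 (0.94 ± 0.21). By FPKM, Il1a, Pglyrp1, Mmp12 and Aim2 differed by -0.14, -0.14, -0.08 and 0.04, with overlap. Cytokine and chemokine genes as a list were higher for 5 and lower for 8 of 13 members in the counts (median -0.18). Of these, 1 was higher without overlap (4.83% of all genes).

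Of 18 tested epithelial genes 13 were higher on DRP-104, 1 without overlap (4.83% of all genes), with a median log2 fold change of 0.22. In the FPKM columns 8 of 17 were higher, with a median of -0.09. There Cldn3, Cldn4, Cldn7 and Lcn2 were higher without overlap (4 members, against 9.6% of all genes), and 0 were lower without overlap. Cldn4, Cldn7 and Lcn2 differed by -0.24, -0.09 and -0.05 in the counts. The keratins of the line were abundant in every tumor. Krt19, a ductal keratin, was at 18290, 23479 and 26575 against 18842, 19213 and 19081 (0.24 ± 0.19), and Krt8 overlapped widely (0.03 ± 0.25). The junction genes Epcam (0.91 ± 0.35) and Cldn3 (0.94 ± 0.37) were higher by more, and Cldn3, at 367, 472 and 325 against 111, 316 and 227, was the member without overlap in the counts. All 11 mesenchymal genes were lower on DRP-104, 3 without overlap (5.75% of all genes), with a median of -0.47. The 3 were Prrx1, a mesenchymal transcription factor (-1.03 ± 0.32), Sparc, a matrix protein (-0.93 ± 0.28), and Cdh2, the cadherin of mesenchymal cells (-0.83 ± 0.39). All 11 were lowest in DRP-104 tumor 3. Without that tumor the median was -0.16 and 7 of 11 were lower. In the FPKM columns 7 of 11 mesenchymal genes were higher on DRP-104 (median 0.11), and none was without overlap. Vim, the mesenchymal intermediate filament, was at 75789, 69301 and 57717 against 61180, 89267 and 65449 (-0.08 ± 0.26).

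**Figure D2:**
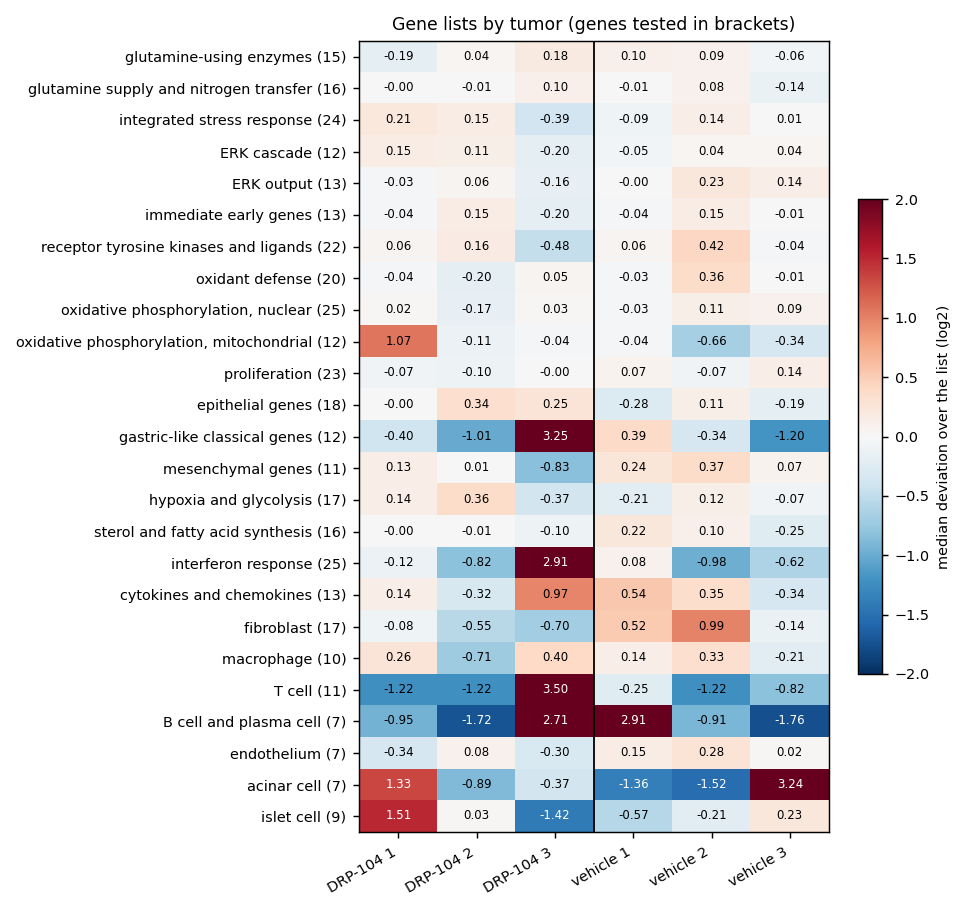
Each cell gives, for 1 tumor (columns) and 1 gene list (rows, number of tested genes in brackets), the median over the list of the gene's log2(normalized count + 1) minus its mean over the 6 tumors. Colors stop at 2 and -2 while the printed values do not. Interferon, T cell and gastric-like genes are high in DRP-104 tumor 3 (2.91, 3.50 and 3.25). The fibroblast list is below 0 in all 3 DRP-104 tumors (-0.08, -0.55 and -0.70) and also in vehicle tumor 3 (-0.14).

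Interferon response genes were far higher in DRP-104 tumor 3 than in the other 5 tumors. Interferons act through STAT and IRF factors on antiviral effectors, on the chemokines that attract T cells and on the antigen presentation genes of MHC class I. All 25 genes of the interferon list were highest in this tumor. Cxcl9, a T cell chemokine induced by interferon gamma, was at 95, 2.31 and 3179 in the DRP-104 tumors and 41, 7.42 and 6.74 in the vehicle tumors. Gbp2, a guanylate-binding protein, was at 320, 111 and 8845 against 258, 119 and 98. The immunoproteasome gene Psmb8 was at 123, 44 and 2579 against 128, 64 and 71. DRP-104 tumors 1 and 2 lay within or near the range of the vehicle tumors for these genes. The MHC class I heavy chain gene H2-K1 was at 3775, 2659 and 38553 against 3207, 2581 and 1912, and its partner B2m at 5751, 3070 and 34993 against 3925, 2999 and 3431. Reads of H2-K1 and of guanylate-binding genes may be shared with close paralogs. The list median log2 fold change was 1.05 with all tumors, 24 of 25 genes being higher, and 0.04 without DRP-104 tumor 3, when 12 of the 24 genes that could still be tested were higher. Irf9 was the member without overlap (4.83% of all genes), at 518, 518 and 986 against 509, 265 and 403 (0.76 ± 0.33).

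Promoters of the interferon list were searched for the interferon-stimulated response element in the form GAAANNGAAA, on both strands. The RefSeq windows (GRCm38.p6) ran from 250 bases before to 50 after each start. They covered 22 of the 25 genes in 27 windows, of which 11 (40.7%) had the motif, against 3.44% of all 32841 windows. The list was compiled from known interferon response genes, so a higher share follows from that choice whatever the values in tumor 3, and it is no evidence on that tumor. The gamma-activated site TTCNNNGAA was in 3 of the 27 windows (11.1%) and in 8.3% of all. Stretches around the motif (in capitals) are shown for a guanylate-binding gene, a chemokine and the MHC class I light chain, each more than 4-fold higher in tumor 3 than in any other tumor, 5′ to 3′ on the strand of the gene. Gbp2 lies at chr3:142620554-142620662 (+), Cxcl10 at chr5:92349043-92349139 (-) and B2m at chr2:122147498-122147607 (+), and the motif ends 49, 203 and 129 bases before the start.
Gbp2: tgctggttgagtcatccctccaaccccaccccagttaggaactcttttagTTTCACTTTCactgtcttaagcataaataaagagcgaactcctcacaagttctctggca
Cxcl10: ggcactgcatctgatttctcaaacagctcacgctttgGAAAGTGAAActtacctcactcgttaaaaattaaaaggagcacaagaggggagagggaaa
B2m: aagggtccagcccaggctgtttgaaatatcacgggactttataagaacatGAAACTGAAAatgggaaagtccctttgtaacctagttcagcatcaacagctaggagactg
A match describes the letters of the window only, and binding was not measured.

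Markers of T cells and cytotoxic cells were highest in DRP-104 tumor 3, and the defining ones were at or near 0 elsewhere. Cd8a, the co-receptor of cytotoxic T cells, was at 0, 0 and 501 in the DRP-104 tumors and 1.79, 0.93 and 0.96 in the vehicle tumors. Cd3e, a chain of the T cell receptor complex, was at 0, 0 and 120 against 3.57, 0 and 0, and Foxp3, the factor of regulatory T cells, at 0, 3.46 and 25.5 against 2.68, 4.64 and 0.96. Gzma, a granzyme of killer cells, was at 0, 0 and 298 against 9.83, 0.93 and 0. The sum over all 12 listed T cell genes was 1814 in DRP-104 tumor 3 and 113 to 183 in the other 5 tumors, and all 11 tested members were highest in tumor 3. Trbc2, a constant region of the T cell receptor beta chain, was the member without overlap (4.83% of all genes), at 50.3, 39.2 and 165 against 30.4, 12.1 and 18.3. The median log2 fold change of 1.32 over the T cell genes therefore rests on DRP-104 tumor 3, and without it 4 of the 11 genes kept a mean of at least 10 (median 0.39). The fitted difference of Cd8a was 1.86 ± 2.30 on the log2 scale.

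The same tumor had the highest levels of most gastric-like secretory genes. Gkn2, a secreted protein of gastric mucosa, was at 82, 82 and 7954 against 1571, 65 and 8.66. Tff2, a trefoil factor, was at 231, 18 and 3190 against 342, 16 and 58, and Muc5ac, the gastric surface mucin, at 102, 85 and 5683 against 3442, 469 and 214. Vehicle tumor 1 was the next highest for these 3 genes. Of 12 tested members 10 were highest in DRP-104 tumor 3, and the list median of 0.98 was -0.13 without it. Pigr, the transporter of polymeric immunoglobulin across epithelium, was at 236, 129 and 7934 against 78, 37 and 14. The groups did not overlap, but tumor 3 stood far above tumors 1 and 2. At the other end Nrk, a Ste20-family kinase, had no read in DRP-104 tumor 3 and was at 1033 and 643 in tumors 1 and 2 and 148, 694 and 289 in the vehicle tumors.

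**Figure D3:**
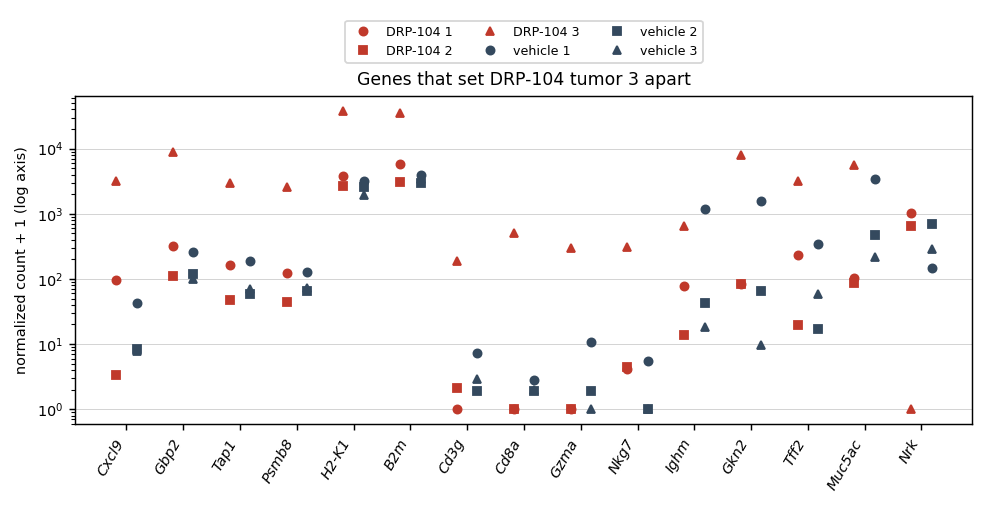
Normalized counts plus 1 (log axis) of interferon, MHC class I, T cell, plasma cell and gastric-like genes and of Nrk in the 3 DRP-104 tumors (red) and 3 vehicle tumors (dark). The triangle of DRP-104 tumor 3 lies above all other tumors for 13 of the 15 genes, below vehicle tumor 1 for Ighm, and at 0 reads for Nrk.

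The enzymes that use Gln, the direct targets of the drug, differed little at the RNA level in the normalized counts. Of 15 tested members 7 were higher and 8 lower on DRP-104, with a median log2 fold change of -0.01 and 1 member lower without overlap (5.75% of all genes). In purine synthesis Ppat and Pfas differed by -0.01 ± 0.21 and 0.13 ± 0.16, and in pyrimidine synthesis Cad, the multifunctional first enzyme, by -0.27 ± 0.20. The exception was Gfpt2, an isoform of the first enzyme of hexosamine synthesis, at 40, 30 and 54 against 139, 224 and 93 (-1.81 ± 0.42, DESeq2 adjusted p = 0.0328). Gfpt1, the other isoform, was at 2591, 3538 and 5821 against 3658, 2592 and 2276 (0.44 ± 0.30), with overlap. By FPKM 7 of 14 members were higher (median 0.01), and Gfpt2 differed by -0.01 with overlap. There 4 members were higher without overlap (Gls2, Pfas, Ctps and Asns, against 9.6% of all genes). Gfpt1 was lower without overlap (-0.46, against 9.65%).

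Genes that make, carry or replace Gln also overlapped between the groups, with the exception of Gpt, which was higher (1 of 16, against 4.83% of all genes). Glul, glutamine synthetase, was at 2541, 2807 and 4483 against 3200, 4124 and 2192 (0.05 ± 0.28, 95% interval -0.60 to 0.70). Asns, asparagine synthetase, was at 696, 760 and 504 against 408, 624 and 533 (0.32 ± 0.23). Gpt, an alanine transaminase, was at 209, 181 and 228 against 171, 86 and 125 (0.74 ± 0.30). The list had a median of 0.01. The integrated stress response, which raises ATF4 and its targets when amino acids are short, had a median of -0.08 over 24 members, 1 higher without overlap (4.83% of all genes). That member was Mthfd2, a mitochondrial folate enzyme, at 718, 595 and 485 against 437, 399 and 466 (0.45 ± 0.19). Atf4 itself was at 4926, 4387 and 2701 against 3624, 3957 and 4316. DRP-104 tumor 3 was lowest for Atf4, Ddit3 and Trib3 within its group, and without it the list median was 0.13 and Trib3, a feedback inhibitor of this pathway, differed by 0.81. In the FPKM columns 20 of 24 stress response genes were higher on DRP-104 (median 0.19). There 5 were higher without overlap (9.6% of all genes) and 1 lower (9.65%).

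Members of the ERK pathway differed little between the groups. Over 12 cascade genes the median log2 fold change was -0.02. The RAF kinase gene Araf was the 1 member without overlap, and higher (0.29 ± 0.15), against 4.83% of all genes. Over 13 output genes the median was -0.16, with 2 higher and none without overlap. Dusp6, a phosphatase induced by ERK, was at 5501, 4942 and 5778 against 4958, 6419 and 5214 (-0.03 ± 0.15, 95% interval -0.38 to 0.33). Dusp4 (-0.55 ± 0.39) and Dusp5 (-0.35 ± 0.30) were lowest in DRP-104 tumor 3, and without it they differed by -0.06 and -0.05. The immediate early genes, which respond within minutes to growth factors and also to handling of tissue, overlapped for all 13 members (median -0.10). In the FPKM columns described further on, all 13 were higher on DRP-104 (median 0.30), 2 of them without overlap (9.6% of all genes). Myc was at 3026, 3166 and 3324 against 2955, 3136 and 3089 (0.05 ± 0.12).

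Receptor tyrosine kinases and their ligands were more varied. Erbb3, the ErbB receptor with an impaired kinase, was at 745, 1166 and 2046 against 587, 627 and 479, without overlap (1.11 ± 0.33, 95% interval 0.34 to 1.88, limma adjusted p = 0.916, DESeq2 adjusted p = 0.0679). Its log2 fold change was 0.73 without DRP-104 tumor 3, and -0.20 with overlap in the FPKM columns. Egfr was at 1123, 1219 and 528 against 951, 1065 and 951. DRP-104 tumor 3 was lowest and tumors 1 and 2 highest, so that the log2 fold change was -0.14 ± 0.30 with all tumors (95% interval -0.83 to 0.55) and 0.24 without tumor 3. Erbb2 differed by 0.13 ± 0.21. Axl, a receptor linked to mesenchymal state, was at 11090, 11452 and 6123 against 10721, 12991 and 14505 (-0.46 ± 0.26), and by -0.17 without tumor 3. All 6 tested ErbB ligands were lower on DRP-104 with overlap, from -0.02 for Tgfa to -1.07 for Egf. Without DRP-104 tumor 3, Tgfa and Btc were higher by 0.20 and 0.13. Over the 22 members 3 were higher without overlap (Erbb3, Insr and Kit), against 4.83% of all genes. In the other direction 2 were lower (Pdgfra and Fgfr2), against 5.75%. The median was -0.32, and -0.17 without tumor 3. By FPKM 14 of 20 members were higher (median 0.10), 1 of them without overlap (9.6% of all genes).

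**Figure D4:**
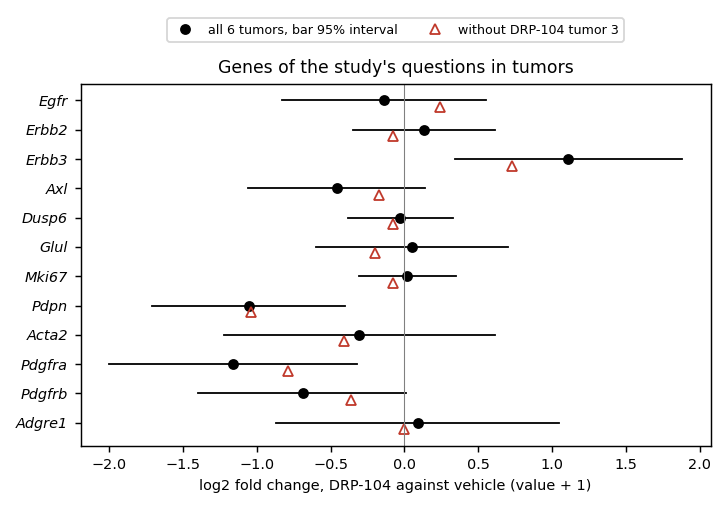
Log2 fold change of DRP-104 against vehicle tumors on the log2(normalized count + 1) scale for 12 genes of signaling, Gln synthesis, proliferation and stroma, with limma's 95% interval (black) and the value without DRP-104 tumor 3 (red triangles). The intervals of Pdpn, Pdgfra and Erbb3 leave out 0 before adjustment, and Egfr and Axl shift toward higher values without tumor 3.

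Mitochondrial genes gave different pictures by genome. Of 25 nuclear-encoded oxidative phosphorylation genes 18 were lower, 5 without overlap against 5.75% of all genes, by small amounts (median -0.13). The 5 were Ndufa1 (-0.39 ± 0.20), Sdha (-0.27 ± 0.14), Uqcrfs1 (-0.26 ± 0.13), Cox5a (-0.34 ± 0.16) and Atp5a1 (-0.17 ± 0.14), a subunit each of complexes I to IV and of ATP synthase. The 12 mitochondrially encoded genes were all higher (median 0.63). Of these 2 were without overlap, mt-Co2 and mt-Co3, against 4.83% of all genes. Nuclear copies of mitochondrial sequence may take part of the reads of the 12 genes. With mt-Atp8, which was too low to be tested, the summed count of these genes was 1232600 in DRP-104 tumor 1, 544847 and 540122 in tumors 2 and 3, and 562968, 412476 and 474991 in the vehicle tumors. The highest sum was that of the tumor with the fewest genes detected, and without it the median was 0.24. Whether that library's makeup carries the difference was not tested. Among 20 genes of oxidant defense 15 were lower, 1 without overlap (Srxn1, which restores peroxiredoxins, -0.51 ± 0.20) against 5.75% of all genes, and the median was -0.14.

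Genes of mitosis were lower on DRP-104 for 12 of 13 members, 5 of them without overlap, against 5.75% of all genes. Ccnb2, a mitotic cyclin, was at 554, 580 and 653 against 757, 775 and 783 (-0.38 ± 0.15), and Ccnb1 at 810, 707 and 702 against 878, 1025 and 937 (-0.36 ± 0.15). Cdk1, Aurkb and Ccna2 were the others. Over the 13 the median was -0.19, while for 10 replication genes it was -0.03 with none without overlap. Mki67, which encodes Ki67, was at 1882, 1970 and 2386 against 2182, 2054 and 1899 (0.02 ± 0.15, 95% interval -0.31 to 0.35). Hypoxia and glycolysis genes were higher for 13 of 17 members with a median of 0.13, none without overlap, and for 17 of 17 without DRP-104 tumor 3 (0.33). Of 16 sterol and fatty acid genes, Acly, which makes cytosolic acetyl-CoA (-0.35 ± 0.15), and Acaca, which commits it to fatty acids (-0.22 ± 0.14), were lower without overlap (5.75% of all genes). Fdft1 was higher without overlap (4.83% of all genes), and the list median was -0.08.

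Myeloid markers overlapped between the groups in the normalized counts except for Mmp9. The macrophage receptor gene Adgre1 was at 303, 96 and 205 against 215, 155 and 147 (0.09 ± 0.42), and the list of 10 had a median of -0.11 and no member without overlap. By FPKM 8 of 9 macrophage markers were higher on DRP-104, 1 of them without overlap (9.6% of all genes). Their median was 0.57, and 0.32 without the column DRP104_1. Of 6 tested neutrophil markers Mmp9, a gelatinase of neutrophils and other cells, was lower without overlap (5.75% of all genes), at 477, 472 and 138 against 723, 917 and 518 (-1.15 ± 0.47). The neutrophil median was -1.12, with 2 members higher and 4 lower, and lay between -1.89 and -0.11 with each tumor left out. S100a8 was at 13, 4.61 and 133 against 152, 165 and 12. For Cd4 the values were 0, 4.61 and 51 against 18, 4.64 and 18.

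The series also holds FPKM values, which scale counts by gene length and library size, in 3 columns labelled for DRP-104 tumors and 3 for vehicle tumors. These columns could not be matched to the 6 tumors above by their numbers. Over 10253 genes the correlation of a count column with an FPKM column, after subtracting each gene's mean within its table, lay between -0.55 and 0.45 for the 36 pairs and between -0.22 and 0.08 for those with the same number. The FPKM columns are therefore described as a second set of profiles by group. In them limma on log2(FPKM + 1) called 0 of 14183 genes (1079 at an unadjusted p under 0.05), and the groups did not overlap for 1362 genes higher on DRP-104 (9.6%) and 1369 lower (9.65%). The FPKM column DRP104_1 stood apart, more than 2-fold below all other columns for 420 genes against at most 4 in any other.

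The matrix genes that were lower in the normalized counts were not lower in the FPKM columns. Col1a1 was at 1278, 395 and 334 FPKM in the 3 DRP-104 columns and at 276, 323 and 199 in the vehicle columns, higher without overlap. Col3a1 was at 911, 447 and 342 against 311, 443 and 284 FPKM, and Cpxm1 at 47.3, 38.2 and 26.6 against 21.7, 36 and 19.6, with overlap. Of 18 fibroblast genes 14 were higher on DRP-104 in FPKM, 3 without overlap (9.6% of all genes), with a median log2 fold change of 0.30 (0.24 without the column DRP104_1). Of the 32 genes that DESeq2 called lower in the counts, 25 were higher on DRP-104 in FPKM, and of 23 genes called higher that were tested in FPKM, 10 were higher there. Gabrp was at 2.88, 12.1 and 11.3 FPKM against 15, 7.78 and 13.6. The interferon genes were lower for 22 of 23 members in FPKM (median -0.28), 11 without overlap (9.65% of all genes), and the mitochondrially encoded genes for 12 of 12. The summed FPKM of the 13 listed mitochondrial genes was 2488 in DRP104_1 and 13190 to 16238 in the other 5 columns. Over 12703 genes tested in both tables, 82 were without overlap in the same direction (39 higher, 43 lower) and 169 in opposite directions.

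Of the 82 genes without overlap in the same direction in both tables, 54 had a mean count of at least 100. The higher ones included St14, the membrane protease matriptase, at 662, 931 and 804 against 161, 466 and 428 normalized counts (1.31 ± 0.39) and at 24, 12.7 and 14.6 against 8.59, 7.39 and 7.22 FPKM. Cldn3, a tight junction claudin, was at 28, 13.9 and 15.3 against 11.1, 6.64 and 9.65 FPKM, and Ltf at 2.32, 3.03 and 3.03 against 1.46, 1.86 and 2.03 FPKM. That these genes had the same direction in both tables follows from how they were chosen. On the lower side, Ccnb2 was at 15.7, 25.2 and 19.9 against 30.6, 32.5 and 26.3 FPKM, and Meis1, a homeobox factor, Nqo2, a quinone reductase, and Psmc1, a proteasome subunit, were lower in both (-0.62, -0.43 and -0.32 in the counts). None of these passed the adjusted threshold of limma in either table.

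**Figure D5:**
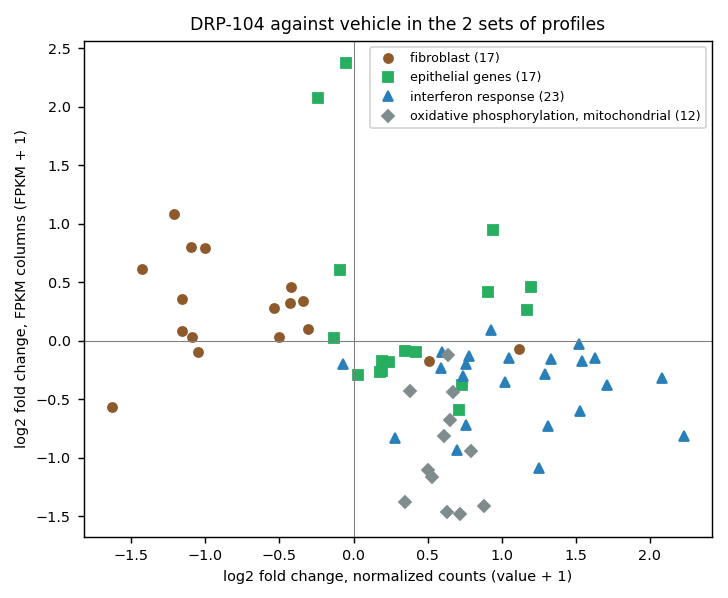
Log2 fold change of DRP-104 against vehicle in the normalized counts (x axis) and in the FPKM columns (y axis) for genes of 4 lists tested in both tables, 1 point a gene. Fibroblast genes lie mostly to the left and mostly above 0, with 2 inflammatory markers to the right. Interferon and mitochondrially encoded genes lie mostly to the right and below 0, and epithelial genes on both sides of 0 on either axis. List medians in FPKM are 0.30 for fibroblast, -0.28 for interferon, -1.02 for mitochondrially encoded and -0.09 for epithelial genes.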

How the data were processed

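Bulk RNA-seq of whole tumors was used. Per the study's methods and the processing notes, reads were aligned with HISAT2 and analysed with DESeq2, and the notes also name STAR 2.5, CASAVA and GRCm39, whereas the coordinates of the FPKM table are those of GRCm38 (24873 of 34411 gene identifiers have the same span as in GENCODE M21). The deposited signal values of the 6 tumors were read counts that the authors had divided by a DESeq2 size factor: 99.9946% to 100% of the values per tumor came out as whole reads within 0.0051. The deposited FPKM values were used as the authors gave them, and their depth is unknown. Columns of the authors' own comparisons (fold changes and p-values) were not used.

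Groups came from the labels. Genes with a mean normalized count of at least 10 (FPKM: 0.5) over the 6 columns were tested with limma 3.58.1 (R 4.3.3; trend) on log2(value + 1), a scale that understates the change of low genes, with Benjamini-Hochberg adjustment and a threshold of 0.05. edgeR 4.0.16 and DESeq2 1.42.0 on the recovered reads were alternatives, beside other scalings, pseudocounts, filters, array weights, a replicate block and each tumor left out. DESeq2 with each tumor left out was added after the data had been seen. Scripts were tested on simulated data. Genes were named by rule among those with a mean of at least 100: the 10 largest differences without overlap in each direction, the 5 smallest limma p-values and at most 10 DESeq2 calls in each direction, the 10 with the largest range over tumors, and the 10 largest in each direction without overlap the same way in both tables, besides the genes the study measured and members of the lists. Further DESeq2 calls were named after their values had been seen. The lists and members were chosen with earlier results of these data known. Errors are limma standard errors unless stated, and intervals are 95%.

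Reads per tumor were 16339957 to 20687784, so counting error is small for genes with a mean of at least 100, and the number of tumors limits the precision. Some genes are not reported here.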

Additional observations from a re-analysis of the deposited data

How the results depend on the processing

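The main test called 0 genes under every scaling, pseudocount, filter and weighting tried and with each tumor left out. DESeq2 on the recovered reads called 60, and 18 to 99 with each tumor left out, the lowest without vehicle tumor 2 and the highest without DRP-104 tumor 1, with 27 without vehicle tumor 1. The 32 lower calls ranged from 4 (without vehicle tumor 1) to 68 (without vehicle tumor 3), and the 28 higher calls from 11 to 59. Of the 57 calls without DRP-104 tumor 3, 24 were among the 60. The cause of the gap between tools was not tested. At an unadjusted p under 0.05 the 775 genes became 496 with a mean of at least 100 and 1233 with no filter, tests over fewer and more genes, and 371 (without vehicle tumor 2) to 1067 (without DRP-104 tumor 1) with each tumor left out. In FPKM these were 539 with a mean of at least 5, 1660 with no filter and 623 to 1712 with each column left out, with 0 to 1 adjusted calls. Genes without overlap numbered 1063, not 1635, at a mean of at least 100.

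List medians with each tumor left out lay between -0.03 and 0.11 for Gln supply, -1.28 and -0.51 for fibroblasts, -0.66 and -0.32 for endothelium, -0.98 and 0.81 for adipocytes and -1.42 and -0.22 for erythroid cells. The Schwann cell median was 0.13 with no filter. Of the other list medians under an alternative, 466 were classed as unmoved against the spread between tumors, which does not make them stable. Without DRP-104 tumor 3 the interferon median went from 1.05 to 0.04. In the same fit the gastric-like median went from 0.98 to -0.13 and the T cell median from 1.32 to 0.39. No named gene reversed past a threshold. With the replicate number as a block, limma called 0 genes (557 at an unadjusted p under 0.05). Samples of the same number did not deviate together (r = -0.44, 0.05 and -0.46), and the numbers have no stated shared meaning, so the tumors were not treated as paired.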

Other observations

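Some host cell types were represented in single tumors of either group. The summed normalized count of all 10 listed B cell and plasma cell genes was 144, 68 and 2345 in the DRP-104 tumors and 3524, 230 and 47 in the vehicle tumors, so vehicle tumor 1 and DRP-104 tumor 3 stood above the rest. Ighm, the heavy chain of IgM, was at 76, 13 and 651 against 1189, 42 and 17. The 13 listed acinar genes of normal pancreas summed to 1127, 212 and 417 against 166, 245 and 3268, highest in vehicle tumor 3, and the 10 listed islet genes to 1306, 887 and 1129 against 940, 666 and 1073. The 5 listed skeletal muscle genes summed to 372 in vehicle tumor 2 and to at most 20.3 in the others, and the 5 listed mesothelial genes to 18557 there and 7797 to 11600 elsewhere. In the FPKM columns 9 of 10 islet genes were higher on DRP-104, 7 without overlap (9.6% of all genes), with a median log2 fold change of 2.91.

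Monocyte-attracting chemokine genes were lower for 3 of 3 members (median -0.41) with overlap. Of 10 sterol synthesis genes 4 were higher and of 6 fatty acid synthesis genes 0 were, with medians of -0.01 and -0.21. Markers of duct cells were higher for 4 of 4 members (median 0.55) with overlap.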
